A study of Vulpes vulpes with 48 samples.

Results

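In this comparison, gene expression in the right basal forebrain was set against the right prefrontal cortex within 1 line of silver foxes (Vulpes vulpes), the line selected for aggressive behaviour. Its members are 24 of the series' 48 labelled samples: 12 aggressive basal forebrain libraries and 12 aggressive prefrontal cortex libraries, and no tame library enters the contrast. All were from male adults aged 1.5 years, and each library was made from the poly(A) RNA of 1 brain sample. The labels give these foxes no treatment, and they do not state whether a forebrain and a cortex library came from the same fox or from different ones, so p-values measure the spread between these libraries. The genes were those present in both deposited count tables, 12695 of the 13202 listed in either.

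The prefrontal cortex is a layered sheet of excitatory projection neurons and local inhibitory neurons, known for its part in decisions and in the restraint of behaviour. The basal forebrain is a mixed territory near the base of the brain. It holds cholinergic neurons that project to the cortex and many inhibitory neurons, and it borders on striatal, septal and hypothalamic tissue. Marker genes of these cell types would tell such tissues apart, but the tables name genes by dog Ensembl identifiers and pair none with a symbol. The fox RefSeq table used here (assembly VulVul3) matched 0 of the 13202 identifiers, so the dissection labels were not checked against markers, and genes are given by identifier with no statement of function, position or sequence. In bulk tissue, fewer cells of a type and less RNA per cell cannot be told apart.

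Forebrain libraries held between 6.25 and 13.6 M counts (M, 1000000) and cortex libraries between 6.23 and 16.1 M. The means, 10.1 ± 2.07 and 12.1 ± 3.21 M (SD, 12 libraries per region), did not differ beyond the spread between libraries (permutation test, two-sided, p = 0.0873, adjusted p = 0.0873 over 4 library measures). The scaling factors from the trimmed mean of M-values (TMM) did not overlap, at 1.02 to 1.08 in the forebrain and 0.929 to 0.981 in the cortex (permutation test, p = 1e-05, the smallest that 100000 permutations can give, adjusted p = 4e-05). No 2 libraries of a region looked like repeats of 1 library, since chi-square per degree of freedom between their counts was 3.62 or more. The regions were counted in separate tables, so region and table cannot be told apart.

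Most genes differed between the regions, and most of them by little. Of 12641 genes that passed the filter on low counts, 8661 passed the edgeR quasi-likelihood test at a Benjamini-Hochberg adjusted p under 0.05, which is 68.5% of the genes tested. Of these, 4542 were higher and 4119 lower in the forebrain. The median absolute log2 fold change of the called genes was 0.46, against 0.30 over all tested genes, and 62.1% of the called genes differed by less than 1.5-fold. The split by direction depended on the scaling: with upper-quartile scaling in place of TMM, 5626 genes were higher and 3268 lower in the forebrain, and the median over all tested genes moved from a log2 fold change of 0.03 to 0.12.

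A smaller group of genes set the regions far apart. Tested against a difference of 2-fold instead of 0, 722 genes passed (edgeR glmTreat, adjusted p under 0.05), 5.71% of those tested, and 270 of them were higher and 452 lower in the forebrain. With upper-quartile scaling the same test gave 350 and 388. Fold changes over 4-fold were seen in 82 called genes higher in the forebrain, whose median mean level was 23.4 CPM (counts per 1000000 counts of the library, on TMM-scaled totals) there and 3.03 CPM in the cortex. In the other direction, 131 called genes were over 4-fold higher in the cortex, at medians of 52.4 CPM there and 9.11 CPM in the forebrain. Among genes listed in both tables, 1 gene averaged under 1 CPM in the cortex and at least 10 in the forebrain, and 2 genes showed the reverse. The tables leave little room for such genes, because every gene in them reached 1 CPM in at least 6 libraries of its table. These counts therefore do not show how common near absence in 1 region was.

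**Figure D1:**
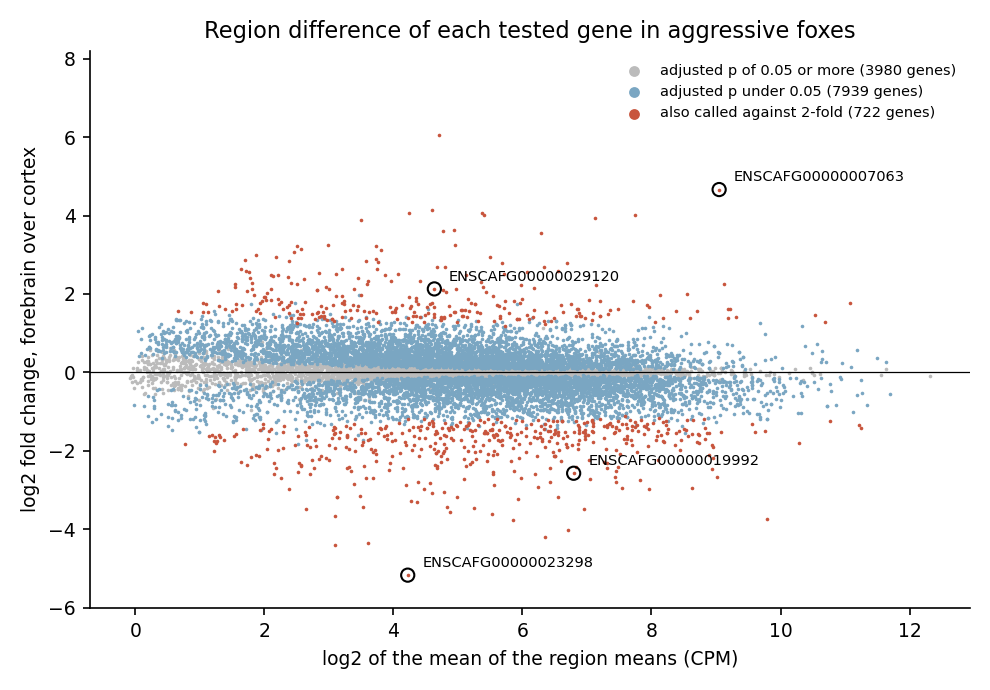
Each point is 1 of the 12641 tested genes, with the log2 of its mean level in CPM on the x axis and its log2 fold change, forebrain over cortex, on the y axis; colours give the 2 tests, and circles mark the 4 genes named in the text. The cloud lies above 0 at low levels and dips below 0 at high levels, and the 722 genes called against 2-fold lie outside it on both sides.

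Direction followed the level of the gene. Genes were divided into 4 groups of equal size by their mean log2 CPM over all 24 libraries. In the lowest group, with a median of 5.45 CPM, 1400 called genes were higher and 584 lower in the forebrain. In the highest group, with a median of 150 CPM, the balance was the opposite, with 804 higher and 1593 lower. The share of called genes that were higher in the forebrain was 70.6%, 60.2%, 49.2% and 33.5% from the lowest to the highest group. Under upper-quartile scaling it was 76.7%, 70.3%, 62.7% and 45.4%, so the order of the groups was the same while group 3 changed its majority. Among the 125 genes that were in the 100 most abundant of either region, 107 were called, 33 higher and 74 lower in the forebrain, and 75 belonged to both regions' lists. In the highest group as a whole 75.9% of genes were called.

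The weight of these genes in the libraries shifted accordingly. The 270 genes called over 2-fold higher in the forebrain took a median of 3.29% of the counts of a forebrain library (2.28% to 4.28%) and 0.886% of a cortex library (0.669% to 1.08%). The 452 genes called over 2-fold higher in the cortex took 7.54% of a cortex library (6.30% to 8.01%) and 2.55% of a forebrain library (2.03% to 3.74%). For neither group did the forebrain and cortex ranges overlap. These shares describe genes chosen on the same contrast and add no test. Over all genes, the 100 most abundant held 14.8 ± 0.270% of counts in the forebrain and 15.2 ± 0.291% in the cortex (SD, n = 12 each; permutation p = 0.00455, adjusted p = 0.00887 over 4 library measures), but with the 50 most abundant genes the difference was 0.0595 percentage points in the other direction (permutation p = 0.603), and with the 500 most abundant it was -2.05 points (p = 1e-05, the smallest possible).

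In 2265 genes every forebrain library lay on 1 side of every cortex library, 17.9% of those tested, 915 with the forebrain higher and 1350 with the cortex higher. All 2265 also passed the edgeR test. Among the 722 genes called against 2-fold, 644 had such separate ranges, 222 of 270 on the forebrain side and 422 of 452 on the cortex side. The other genes of the 722 had at least 1 library inside the other region's range.

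For each direction, among genes that met the naming rule given below, the gene with the smallest p-value and the gene with the largest fold change were followed through every library. ENSCAFG00000029120 was the forebrain gene with the smallest p-value. Its level in the 12 forebrain libraries ran from 31.6 to 45.2 CPM with a median of 41.8, and in the 12 cortex libraries from 7.20 to 11.3 CPM with a median of 9.34. The ranges did not overlap, and the lowest forebrain library was 2.80-fold above the highest cortex library. The difference was 2.13 on the log2 scale (SE 0.073; adjusted p = 1.18e-17 by edgeR).

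ENSCAFG00000007063 had the largest fold change on the forebrain side among genes that met the naming rule. It ran from 662 to 1650 CPM in the forebrain, median 974, and from 20.4 to 160 CPM in the cortex, median 30.5. The cortex value of 160 CPM belonged to library ID238 alone, and the next highest cortex library, ID229, had 45.4 CPM. The regions did not overlap even so, and the difference was 4.66 on the log2 scale (SE 0.34; adjusted p = 1.45e-11 by edgeR). Without library ID238 it was 5.14.

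On the cortex side, ENSCAFG00000019992 had the smallest p-value. It ran from 127 to 223 CPM in the cortex, median 191.4, and from 24.7 to 38.6 CPM in the forebrain, median 31.2. The lowest cortex library, again ID238, was 3.29-fold above the highest forebrain library. Forebrain minus cortex was -2.57 on the log2 scale (SE 0.088; adjusted p = 1.18e-17 by edgeR).

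ENSCAFG00000023298 had the largest fold change on the cortex side among genes that met the naming rule. That rule leaves out genes with a mean under 10 counts in a region. This gene met it through forebrain library ID530, with 68 counts against at most 25 in any other forebrain library. All 12 cortex libraries expressed it, from 22.8 CPM in ID238 to 48.7 CPM in ID233, with a median of 37.4. In the forebrain its median was 0.293 CPM, and 3 libraries, ID534, ID537 and ID539, had 0 counts, which allows up to 0.315 CPM by counting error in the least deep of them. Forebrain library ID530 stood highest at 4.76 CPM, followed by ID533 at 2.69 CPM and ID540 at 1.62 CPM, all under the lowest cortex library. Forebrain minus cortex was -5.17 on the log2 scale (SE 0.40; adjusted p = 3.35e-11 by edgeR). This size rested on the forebrain libraries with counts: it was -5.97 without ID530 and -7.49 without ID238, ID530, ID533 and ID540 together. Between tools it was -4.22 with DESeq2 and -6.74 with limma-voom.

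**Figure D2:**
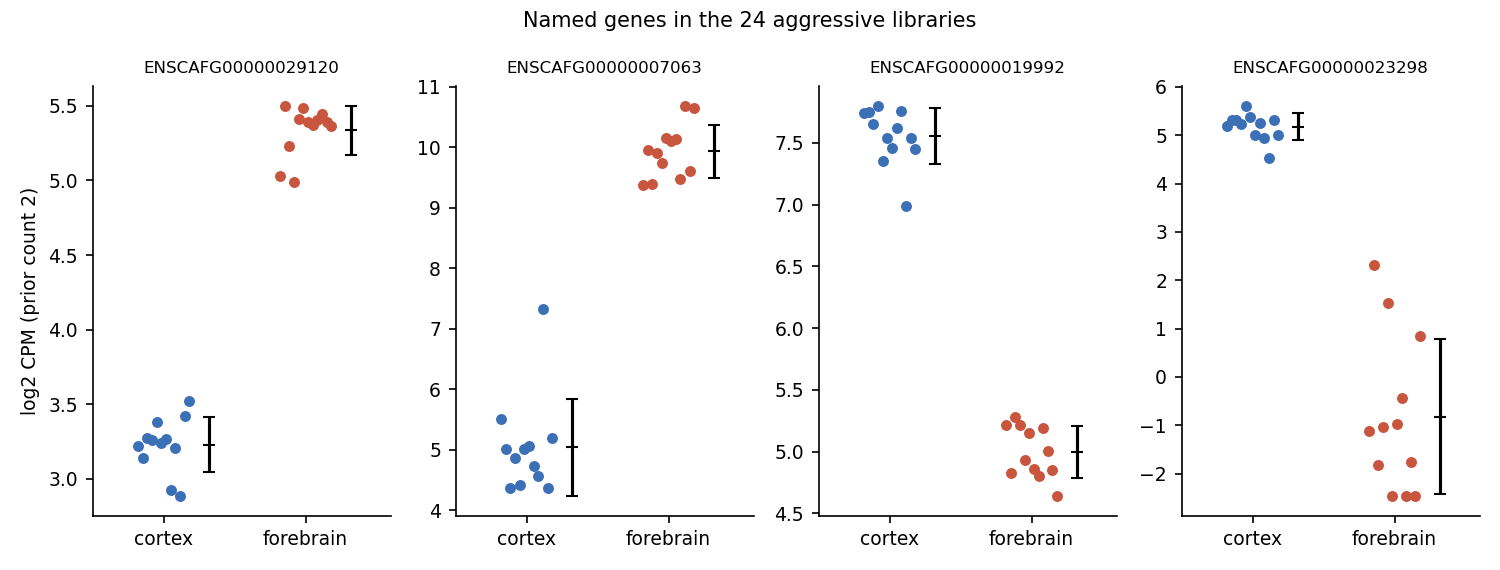
Each panel shows 1 named gene, with log2 CPM (prior count 2) on the y axis, a point for each of the 12 cortex and 12 forebrain libraries, and a black bar for the mean ± SD. The regions do not overlap in any panel, and the cortex point nearest to the forebrain in the panels of ENSCAFG00000007063, ENSCAFG00000019992 and ENSCAFG00000023298 is library ID238. In the panel of ENSCAFG00000029120, ID238 is the cortex point farthest from the forebrain.

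The tame foxes gave a check of these genes in libraries that the contrast did not use. Their regions were counted in the same separate tables, so this check cannot tell region from table either. Fitted on the 22 tame libraries (12 cortex, 10 forebrain), 5511 of the 12641 genes differed between the regions, 43.6% of those tested. All 722 genes called against 2-fold in aggressive foxes had the same sign in tame foxes, and 685 of them passed the plain test there. Over all tested genes, 79.9% had the same sign. The median log2 fold change of the 270 forebrain genes was 1.69 in aggressive and 1.73 in tame foxes, and that of the 452 cortex genes was -1.67 and -1.63. Tame cortex libraries varied widely in some genes: ENSCAFG00000019992 averaged 143.6 ± 94.2 CPM (SD) over the 12 of them and 216.4 ± 28.2 CPM without ID182, ID186, ID187, ID190 and ID191, while ENSCAFG00000023298 averaged 35.5 ± 5.05 and 34.5 ± 4.50 CPM. When the fit left out these 5, a choice made on earlier results of these data, 7317 genes differed, 57.9% of those tested, 720 of the 722 passed, and 88.3% of all genes had the same sign.

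ENSCAFG00000007063 had a tame log2 fold change of 4.09 (SE 0.37), or 4.68 without those 5 libraries. ENSCAFG00000023298 had -5.26 (SE 0.47). ENSCAFG00000029120 had 2.56 (SE 0.29), or 2.10 without the 5 libraries, and ENSCAFG00000019992 had -2.20 (SE 0.43), or -2.77 without them. The difference between the lines was tested as an interaction of line and region: 0 of the 12641 genes passed (edgeR adjusted p under 0.05; 1845 at an unadjusted p under 0.05, and 775 without the 5 libraries, again with 0 passing). For the 4 named genes the interaction adjusted p was 0.398 for ENSCAFG00000029120, 0.441 for ENSCAFG00000007063, 0.548 for ENSCAFG00000019992 and 0.943 for ENSCAFG00000023298. No region difference of these genes was shown to depend on the line.

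Within the aggressive foxes, the libraries of a region were not alike. The first principal component of log2 CPM held 62.2% of the variance and separated the regions, with the cortex at scores from -43.6 to -21.3 and the forebrain from 16.3 to 54.6. Cortex library ID238 held the score of -21.3, while the other 11 cortex libraries lay at or below -35.3. On the forebrain side, ID530 and ID533 lay nearest to the cortex at 16.3 and 17.01. The second component held 8.02% of the variance and set forebrain libraries ID530 and ID540 apart, at -45.1 and -40.3. The next lowest library, ID536, scored -9.81.

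**Figure D3:**
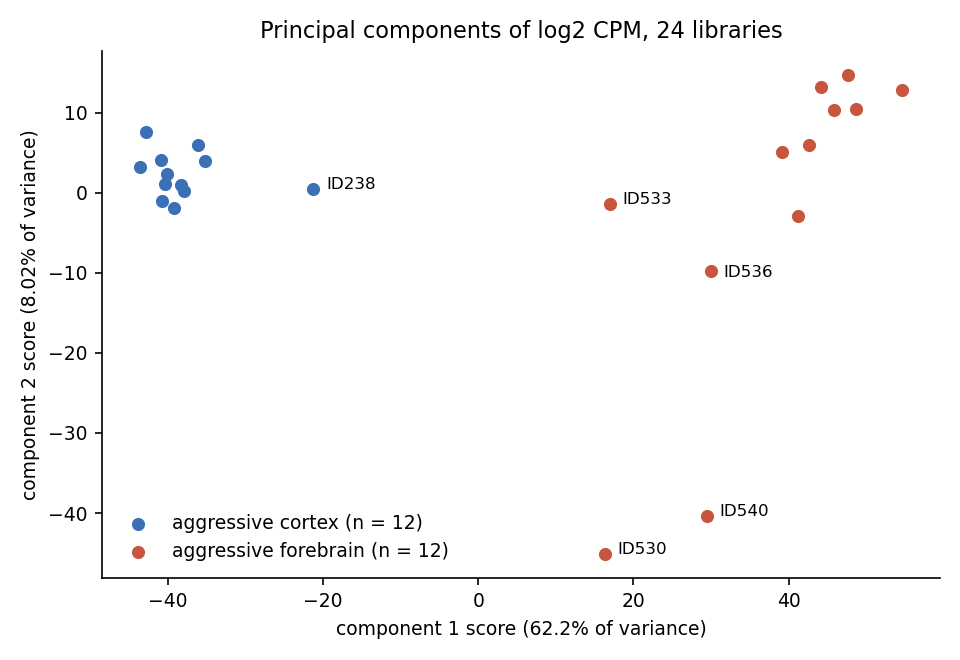
Scores of the 24 libraries on the first (x axis) and second (y axis) principal components of log2 CPM, coloured by region, with 5 libraries labelled. Cortex libraries cluster at the left except ID238 at -21.3, and forebrain libraries ID530 and ID540 lie below -40 on the second component.

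These libraries were described gene by gene, with the region contrast refitted each time without the library in question so that it did not choose its own genes. A library's place was its level in CPM on the way from the median of its own region's other libraries (0%) to the median of the other region (100%), taken as the median over the genes called against 2-fold. For cortex library ID238 it was 30.7% over 462 genes higher in the cortex (quartiles 18.7% and 40.1%) and 9.17% over 301 genes higher in the forebrain (quartiles 0.343% and 27.6%). In the other 11 cortex libraries the place ran from -10.7% to 8.45% over cortex genes and from -4.43% to 2.43% over forebrain genes.

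Forebrain library ID533 was placed at 21.7% of the way to the cortex over 490 cortex genes and at 35.7% over 300 forebrain genes. Library ID530 was placed at 12.8% over 470 cortex genes and at 44.7% over 305 forebrain genes. ID540 followed at 5.24% and 17.5%. The other 9 libraries of this region ranged from -6.66% to 4.88% over cortex genes and from -22.6% to 7.58% over forebrain genes. By median, in these 3 libraries and in ID238, genes high in the library's own region had moved farther than those high in the other. In ID530 and ID533 the lower quartiles were positive. For ID540 the quartiles were -18.7% and 35.7% over forebrain genes and -3.06% and 12.9% over cortex genes. Places were taken in CPM, where the same fold deviation covers more of the way for genes high in the library's own region. Whether this order holds on a logarithmic scale was not tested.

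**Figure D4:**
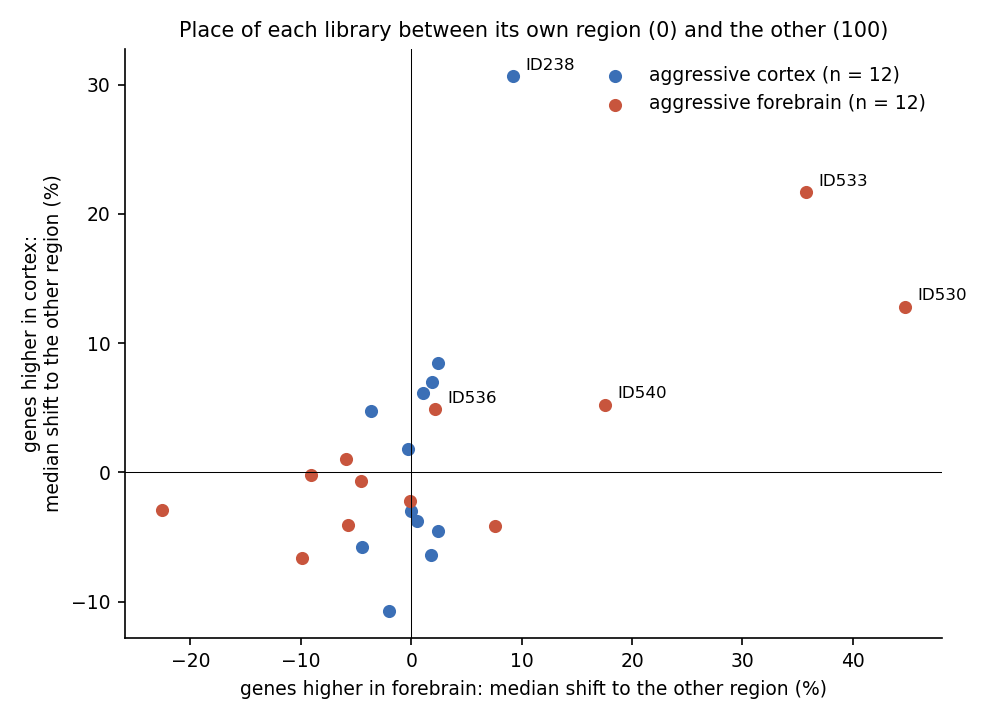
Each point is 1 library, placed by the median share of the way to the other region over genes higher in the forebrain (x axis, %) and over genes higher in the cortex (y axis, %), where 0 is its own region's other libraries. Most points lie near 0, ID238 lies high on the y axis at 30.7%, and ID530 and ID533 lie far along the x axis at 44.7% and 35.7%.

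Counts of genes far above the region's other libraries were highest in ID238 in the cortex and in ID530, ID540 and ID533 in the forebrain. Forebrain library ID536 followed closely with 140 genes, although its place was 2.14% over forebrain genes and 4.88% over cortex genes. In ID238, 217 genes were over 2-fold above the median of the other 11 cortex libraries, against 14 to 41 genes in each of those libraries. Of the 217 genes, 160 were called higher in the forebrain and 14 higher in the cortex when ID238 was left out of the fit, in which 36.5% of all tested genes were higher in the forebrain. In forebrain library ID533, 148 genes were over 2-fold above the other forebrain libraries, and 127 of them were called higher in the cortex and 8 higher in the forebrain without it, in a fit with 32.6% of all tested genes higher in the cortex. The genes above in these 2 libraries were thus mostly higher in the other region, which was not particular to them. In cortex library ID229, 17 of 20 genes above were called higher in the forebrain and 1 higher in the cortex. Not every library leaned this way: in ID231, 6 of 39 were higher in the forebrain and 11 higher in the cortex. Of the 12641 tested genes, 4521 were called higher in the forebrain and 4100 higher in the cortex without ID229. Without ID231 these were 4416 and 4077. Both lists are short. The medians that chose the genes came from libraries that also entered the fits. That favours calls higher in the other region, so these counts add no test.

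Libraries ID530 and ID540 carried a further group. They had 383 and 269 genes over 2-fold above the other forebrain libraries, and 221 genes were common to both, 57.7% of the first list and 82.2% of the second. Fitted without both libraries, 155 of the 221 genes were higher in the cortex, 8 were higher in the forebrain and 58 were not called. In that fit 8604 of the 12641 tested genes were called, and 32.9% of those tested were higher in the cortex. The 221 genes were chosen partly for a low median in the other forebrain libraries, which are also the forebrain side of that fit. This choice favours calls higher in the cortex, so the counts add no test. Their median level was 25.3 CPM in ID530 and 18.2 CPM in ID540, against 4.05 CPM over the other forebrain libraries and 9.80 CPM over the cortex. For 156 of the 221 genes both libraries lay above all 12 cortex libraries, so these 156 genes were not at a level between the regions.

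The genes that ID530 shared with ID533 stood at other levels. Of 66 genes over 2-fold above in both, 63 were called higher in the cortex without these libraries, against 32.8% of all tested genes. These genes too were chosen partly for a low median in forebrain libraries that enter that fit. The choice favours calls higher in the cortex, so the count adds no test. The median levels were 29.1 CPM in ID530 and 24.7 CPM in ID533, between 5.88 CPM in the other forebrain libraries and 56.3 CPM in the cortex. In 1 of the 66 genes both libraries lay above all cortex libraries. Forebrain library ID536 shared 82 of its 140 genes with ID530 and 81 with ID540, 58.6% and 57.9% of its list. Low values were most numerous in ID529 in the forebrain, followed by ID530 with 168 genes over 2-fold below, and in ID240 in the cortex, with 179. These pairs of libraries were picked after their values were seen, and what sets them apart was not tested.

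**Figure D5:**
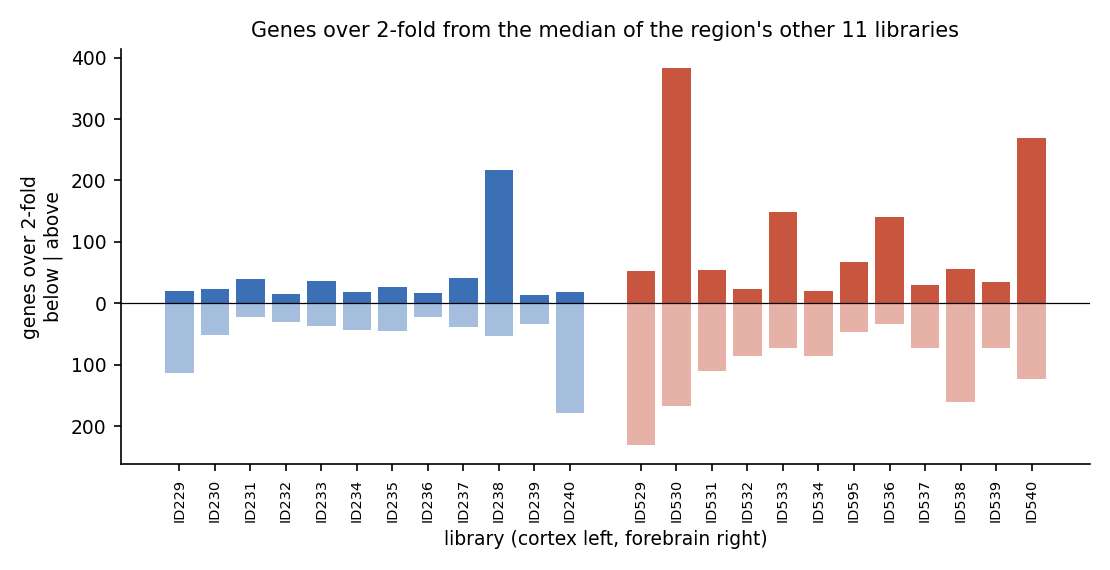
For each library on the x axis, full-coloured bars count genes over 2-fold above the median of the region's other 11 libraries and pale bars count genes over 2-fold below it (y axis, number of genes). ID238 leads the cortex with 217 genes above, and ID530 and ID540 lead the forebrain with 383 and 269.

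The spread between libraries was larger in the forebrain. Measured as the root mean square of its deviations from the region mean over all tested genes, a library's distance was 0.311 ± 0.0639 log2 units in the forebrain and 0.239 ± 0.0503 in the cortex (SD, 12 libraries per region; permutation test on residuals, two-sided, p = 0.00665, adjusted p = 0.00887 over 4 library measures). The difference of 0.0715 fell to 0.0568 after thinning every library to the smallest total (permutation p = 0.0166). Without ID530 alone it was 0.0530 (permutation p = 0.0308). Without ID238, ID530, ID533 and ID540 together, the difference fell to 0.0375 and did not pass (permutation p = 0.0662). The SDs by group of genes kept all 12 libraries per region and were not recomputed without those 4. Genes that were high in the cortex varied most unevenly. Among the 452 of them called against 2-fold, the median SD of log2 CPM was 0.421 in the forebrain, where they were low, and 0.218 in the cortex, and 90.3% had the larger SD in the forebrain. Among the 270 forebrain genes the medians were 0.409 in the forebrain and 0.352 in the cortex, and among the 3980 genes not called they were 0.190 and 0.180, with the larger SD in the forebrain in 63.3% and 55.9%.

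Gene by gene, the count of genes with unequal spread depended on how deviations were taken. A limma test on each gene's absolute deviation from its region median called 7 genes (adjusted p under 0.05), 0.0554% of those tested, all with the larger spread in the forebrain, and 1223 genes had an unadjusted p under 0.05. With deviations from the region mean in place of the median, 288 genes were called, 285 of them with the larger spread in the forebrain. Of the 7 genes, 5 were called lower in the forebrain and 2 were not called for level. Among all 12641 tested genes, 4119 were called lower and 3980 were not called, and 7 genes are too few to compare with these. The count of 7 was not stable: it was 0 in 17 of 24 fits that each left out 1 library. In those 17 fits 989 to 1332 genes had an unadjusted p under 0.05 (limma), around the 1223 of all libraries. In the other fits it was 2 without ID537 or ID539, 13 without ID238, 16 without ID534, 17 without ID595 and 18 without ID532 or ID536.

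The contrast covers no gene that is in 1 table only. A total of 394 genes were listed in the forebrain table alone and 113 in the cortex table alone, with medians of 1.28 and 1.39 CPM in aggressive libraries of their own table, computed on the deposited totals. Most of these genes were scarce, but 22 forebrain genes averaged over 10 CPM, the highest at 131 CPM, against 1 cortex gene, at 11.8 CPM. Their levels in the other region were not analysed here.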

How the data were processed

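Poly(A) RNA of 12 aggressive basal forebrain and 12 aggressive prefrontal cortex samples was sequenced. The authors deposited estimated counts per gene, 1 table per region, unscaled; 4.43% of the forebrain and 4.36% of the cortex values were not whole. The submitters' processing notes name CASAVA 1.8.2, FastQC, Trimmomatic, BWA, bedtools, edgeR and canFam3, without roles. Every gene reached 1 CPM in at least 6 libraries of its table.

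Counts were rounded, filtered with filterByExpr (minimum count 10; 54 genes removed), scaled by TMM and fitted with edgeR 4.0.16 in R 4.3.3 (robust quasi-likelihood, region as the single term, Benjamini-Hochberg adjustment, threshold 0.05). Log2 CPM used a prior count of 2. Spread was tested with limma 3.58.1 and single values with 100000 permutations. DESeq2 1.42.0, limma-voom, the Wilcoxon test, other scalings and filters, blocks and left-out libraries were alternatives. The edgeR tests and the limma spread test were checked on simulated counts. In those for edgeR few genes changed, with equal numbers up and down, unlike these data. That check therefore does not cover the choice of scaling.

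The naming rule asked for an adjusted p under 0.05, a mean of at least 10 counts in each region, whole counts and no gene with identical values; 657 tested genes had fractional counts and 503 an identical twin, so shared reads can enter them. Without symbols, at most 2 identifiers per direction are named, and 18 marker lists were not tested. Members, lists and rules were chosen with earlier results of these data known. Libraries left out together were chosen after seeing the data.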

Additional observations from a re-analysis of the deposited data

How the results depend on the processing

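The count of 8661 genes between the regions was within 1.5 times under all 13 other settings (7362 to 8985) and 24 fits that each left out 1 library (8484 to 8710). The count of 722 genes against 2-fold ran from 614 to 984 under 7 settings and from 679 to 790 with 1 library left out. It was 984 (396 higher and 588 lower in the forebrain) without ID238, ID530, ID533 and ID540 together, a setting that also gave 3396 genes with separate ranges against 2265. The 4 named genes kept their direction and passed in every fit run. The count of genes with unequal spread moved from 7 to 11 among genes of at least 10 CPM in both regions, 12 after thinning every library to the smallest total, 288 with deviations from the region mean, 0 without the 4 libraries together (827 genes at an unadjusted p under 0.05), and ran from 0 to 18 with 1 library left out; the cause was not tested. Without the 4 libraries the difference in distance was 0.0375. With the 50 most abundant genes the difference in their share of counts reversed to 0.0595 percentage points, and with the 500 most abundant it was -2.05 points. Cortex and forebrain libraries that share the last 2 digits of their identifier may come from 1 fox, which the labels do not state. In these 11 pairs, deviations from the region means correlated from 0.000486 to 0.277, with 10 of 11 over 0.1. Their median was 0.181, against -0.0253 over other pairs. Each library was matched best by its own number in 7 of 11 cortex and 7 of 11 forebrain libraries. Over the 500 most variable genes this held for 9 cortex and 9 forebrain libraries. This is a hint from the data and not from the design. The main fit and the permutation tests treated all 24 libraries as independent. With the pair as a replicate block, 8801 genes passed in edgeR, against 8517 in the same 22 libraries with no block, and 748 against 703 passed the 2-fold test. Depth limits scarce genes: a forebrain mean of 0.898 CPM for ENSCAFG00000023298 rests on 0 to 68 counts per library.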
